A study of Mus musculus with 4 samples.

Results

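The genes described here are 10 transcripts of the central vein end of the liver lobule whose expression there depends on Wnt signalling, chosen by name outside the cytochrome P450 family: Glul, Oat, Rhbg, Slc1a2, Rgn, Tbx3, Axin2, Lgr5, Nkd1 and Znrf3. Each matched 1 row of its own among the 25572 loci of the deposited expression table, and none lay in a combined locus of several genes. All 10 were among the 13320 loci that the authors tested, so no member was lost to their filter on low values. Liver RNA was sequenced from 8-week-old C57BL/6J mice, with 2 libraries labelled wild type (WT), from control mice of the knockout, and 2 labelled Ern1-LKO, from mice with a liver-specific knockout of Ern1. Ern1 encodes IRE1α, a sensor of stress in the endoplasmic reticulum that acts by splicing Xbp1 mRNA, and the study set WT and knockout liver side by side. The sources used here do not name the sex of the mice, the Cre driver or the deleted exons.

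In liver, endothelial cells of the central vein release Wnt ligands and R-spondin. In the hepatocytes around that vein these signals stabilise β-catenin, which acts with TCF and LEF factors to turn on genes such as Glul, while the periportal genes at the other end of the lobule stay low there. The target genes include enzymes and carriers that clear ammonia and glutamate as glutamine, and also the pathway's own inhibitors, which limit the signal.

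Values are FPKM, fragment counts divided by the length of the transcript and by the number of mapped fragments, so that levels of different genes can be set side by side. The table gives 1 FPKM per genotype and not per mouse, so neither the spread between the 2 mice of a genotype nor the depth of a library can be seen. Errors are the standard error (SE) of the log2 fold change implied by the authors' test statistic. A gene is said to have risen or fallen where q in the authors' deposited table lay under 0.05. Ern1 was at 21.4 FPKM in WT and 30.2 in Ern1-LKO, a log2 fold change of 0.50. The authors' deposited table gives p = 0.0084 and q = 0.172, so Ern1 was not lower in the libraries labelled knockout. With the deleted exons not named and 1 value for the whole gene, this level does not check the labels. Every direction here is that of the libraries labelled Ern1-LKO. The labelled tissue was checked on 12 hepatocyte markers, none of which was called, with an unadjusted p under 0.05 at 0. Their levels in WT ran from 191 to 11069 FPKM, led by the combined loci of Apoa1 with Sik3 (11069 and 10627 FPKM in WT and Ern1-LKO) and Ahsg with Dnajb11 (6599 and 7232 FPKM).

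Promoter windows, 250 bases before to 50 bases after a start site, were taken from RefSeq on GRCm38.p6, the same assembly as the mm10 build of the table, and 5 of the 10 genes had one: Axin2, Glul, Nkd1, Oat and Slc1a2. Rhbg, Tbx3, Lgr5, Rgn and Znrf3 had no entry. The 3 windows below are shown because Glul is the classic pericentral target, Axin2 the classic feedback inhibitor, and Slc1a2 the only one of the 5 that holds a core of the TCF and LEF motif. Each is written 5′ to 3′ on the strand of the gene, with letters of the motif in capitals. Glul lies at chr1:153899679-153899978, plus strand, Axin2 at chr11:108920099-108920398, plus strand, and Slc1a2 at chr2:102706188-102706487, plus strand.
Glul: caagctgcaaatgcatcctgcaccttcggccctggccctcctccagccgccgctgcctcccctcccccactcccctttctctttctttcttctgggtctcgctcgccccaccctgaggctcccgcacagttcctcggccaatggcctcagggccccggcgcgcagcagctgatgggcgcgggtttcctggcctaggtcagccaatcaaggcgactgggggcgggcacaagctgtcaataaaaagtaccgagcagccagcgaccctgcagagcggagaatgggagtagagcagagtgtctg
Axin2: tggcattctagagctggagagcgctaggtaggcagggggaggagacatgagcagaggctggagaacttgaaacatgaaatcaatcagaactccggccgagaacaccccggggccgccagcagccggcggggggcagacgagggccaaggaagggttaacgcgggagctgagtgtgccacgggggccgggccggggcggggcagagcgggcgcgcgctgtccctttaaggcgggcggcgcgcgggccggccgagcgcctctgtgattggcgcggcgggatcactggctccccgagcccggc
Slc1a2: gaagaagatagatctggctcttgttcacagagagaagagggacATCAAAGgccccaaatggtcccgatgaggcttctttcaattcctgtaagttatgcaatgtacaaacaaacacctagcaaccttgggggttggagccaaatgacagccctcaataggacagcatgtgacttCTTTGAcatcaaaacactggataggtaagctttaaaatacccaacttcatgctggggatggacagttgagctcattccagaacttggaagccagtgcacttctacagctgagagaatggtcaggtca

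The motifs searched, on both strands, were CTTTGA and its longer forms CTTTGAT and CTTTGAA, so that a match to a longer form is also a match to the short one. In the Slc1a2 window the first run of capitals, ATCAAAG, is CTTTGAT on the other strand and begins 207 bases before the start site, and the second is CTTTGA, 77 bases before it. Of 32851 windows of the same length, 16.0% held CTTTGA, 3.73% CTTTGAT and 5.14% CTTTGAA. Of the 5 windows here, 1 held CTTTGA, the same 1 held CTTTGAT, and none held CTTTGAA. With only 5 windows, these counts can show neither likeness to promoters at large nor a difference from them. The windows of Glul, Axin2, Oat and Nkd1 held none of these letters in a row, which says nothing of sites elsewhere. The GC content was 70.0% for Axin2, 64.3% for Glul, 61.7% for Oat, 58.3% for Nkd1 and 45.7% for Slc1a2, against a median of 52.7% over the 32851 windows. The start sites of Axin2, Oat and Glul lay within 3 bases of the edge of the table's locus, whereas those of Nkd1 and Slc1a2 lay 6289 and 47755 bases inside it.

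Of the 10 genes, 1 rose, Rhbg, and 1 fell, Tbx3. Over all tested loci 1.58% were called higher and 1.16% lower, and counts of 1 among 10 genes are too small to set the group apart from that background. In Ern1-LKO liver 7 of the 10 lay above WT, against 47.9% of tested loci, and the median of their log2 fold changes was 0.17, against -0.01 over all tested loci. Grouped by role, all 5 enzymes and transporters lay above WT, and the median of their log2 fold changes was 0.20. Of the 5 genes for Wnt feedback, the R-spondin receptor and the T-box factor, 2 lay above WT, with a median of -0.07. The difference between these groups was not tested. This split by role was not part of the plan, and it also parts the genes by level. In WT the enzymes and transporters stood at 6.97 FPKM or more and the other group at 5.11 FPKM or less. Role and level therefore cannot be told apart. Since the data are from bulk tissue, a change in the number of pericentral cells and a change in RNA per cell cannot be told apart.

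**Figure D1:**
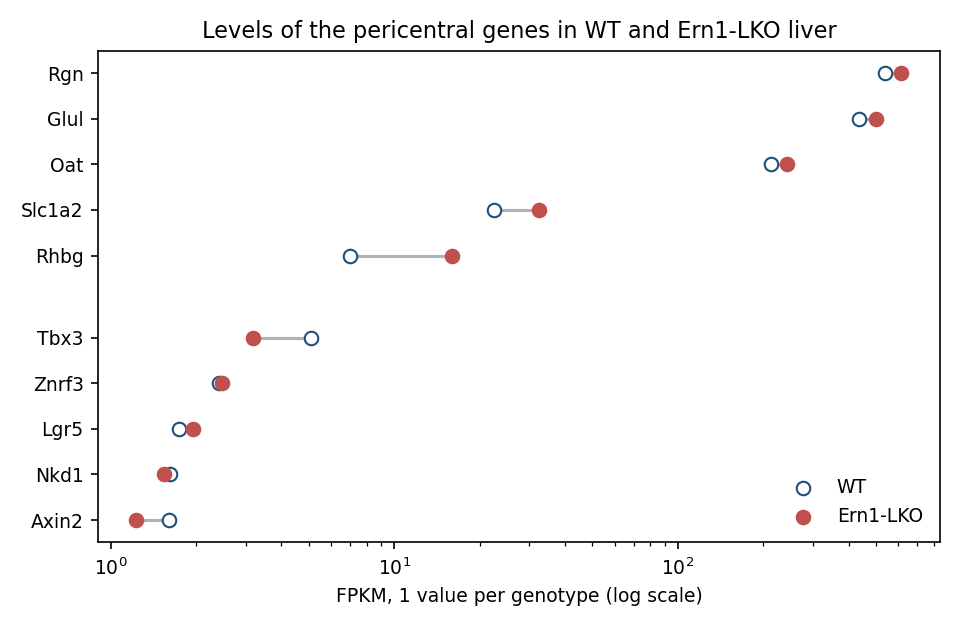
FPKM of the 10 pericentral genes on a log axis, with 1 value per genotype (open circles WT, filled circles Ern1-LKO) and no error, enzymes and transporters above and Wnt feedback, receptor and transcription factor genes below. Rhbg, from 6.97 to 16.0 FPKM, and Tbx3, from 5.11 to 3.18, show the widest gaps between circles.

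Among the enzymes and transporters, the carriers of ammonia and glutamate differed most between the genotypes. Rhbg, an ammonia channel of the Rh glycoprotein family in the plasma membrane, lies at chromosome 3, 88242874 to 88254684 on mm10, on the minus strand, with up to 10 exons. Its level was 6.97 FPKM in WT and 16.0 FPKM in Ern1-LKO. This was a 2.30-fold rise, and the 95% interval from the implied SE runs from 1.77-fold to 2.99-fold. The authors' deposited table gives p = 5e-05 and q = 0.00343, the smallest values of each that it holds. Other loci, Myc and Alas1 among them, share both values, so these do not rank Rhbg first. Only 1.85% of tested loci had a larger log2 fold change than the 1.20 (SE 0.19) of Rhbg. The other Rh family genes, Rhag and Rhcg, were listed at 0 in both genotypes.

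The annotation places a further gene model, Gm38392, over Rhbg on the same strand, and it shares 61.4% of the exon bases of Rhbg. Gm38392 has no row in the table, so reads from it cannot be told apart from those of Rhbg. Tsacc, further along chromosome 3 at 88282760 to 88296838, stood at 6.08 FPKM in WT and 5.01 FPKM in Ern1-LKO. In the authors' deposited table Tsacc has q = 0.999. The level of Tsacc does not measure Gm38392, and the part of Gm38392 in the rise of Rhbg was not tested.

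Slc1a2, which encodes the glutamate transporter GLT-1, lies at chromosome 2, 102658683 to 102790784, on the plus strand. It stood at 22.5 FPKM in WT and 32.4 FPKM in Ern1-LKO, a ratio of 1.44. The interval of the ratio, 1.05 to 1.98, lay above 1, but Slc1a2 was not called, as the authors' deposited table gives p = 0.0266 and q = 0.342. The SE of 0.24 on its log2 fold change was the largest among the 10 genes. Other glutamate carriers of the Slc1a family, Slc1a1 and Slc1a3, were under 0.1 FPKM in both genotypes and were not tested by the authors.

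The 3 enzymes, all of high level, were not called. Glul, glutamine synthetase, the enzyme that joins ammonia to glutamate, lies at chromosome 1, 153899926 to 153909723, on the plus strand. It stood at 434 FPKM in WT and 499 FPKM in Ern1-LKO, a ratio of 1.15 with an interval of 0.899 to 1.46. Oat, ornithine aminotransferase, which passes the amino group of ornithine towards glutamate, lies at chromosome 7, 132557467 to 132576398, on the minus strand. It stood at 214 and 242 FPKM, a ratio of 1.13 with an interval of 0.902 to 1.42. Rgn, regucalcin, the gluconolactonase of vitamin C synthesis, lies at chromosome X, 20549818 to 20562087, on the plus strand. It stood at 540 and 615 FPKM, a ratio of 1.14 with an interval of 0.905 to 1.43.

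These 3 enzymes shared nearly the same log2 fold change, 0.18 to 0.20, each with an interval that spans 0. Between 21.4% and 22.9% of tested loci had a larger log2 fold change than they did. In the authors' deposited table q was 0.929 for Glul, 0.948 for Oat and 0.941 for Rgn.

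**Figure D2:**
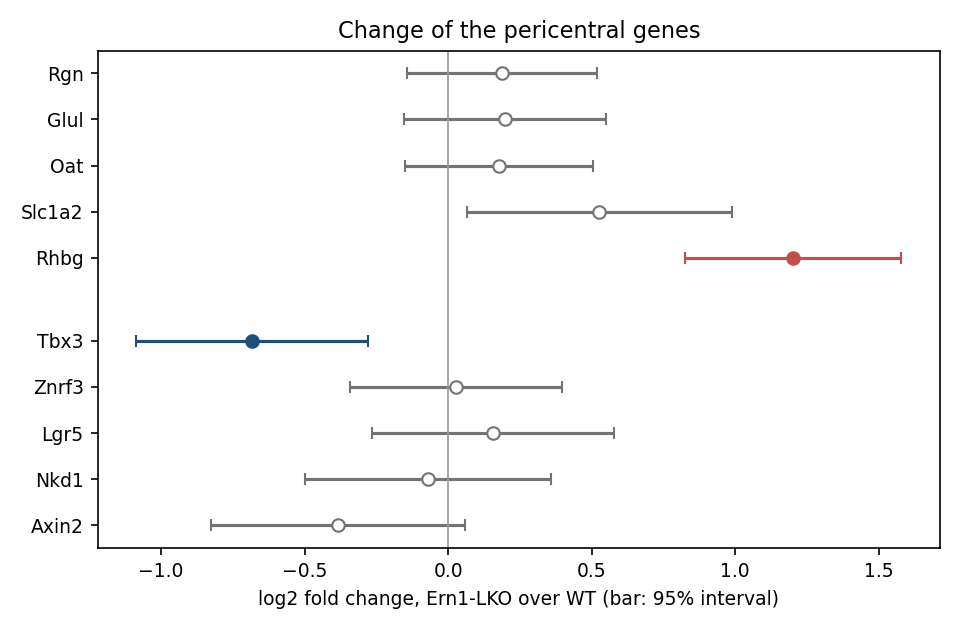
Log2 fold change of Ern1-LKO over WT for the 10 pericentral genes, with bars for the 95% interval from the implied SE. With no dispersion method named, it is not known whether these bars take in the spread between mice. Filled points are genes called by the authors' q, Rhbg at 1.20 and Tbx3 at -0.68, and open points are genes not called.

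Tbx3, a T-box transcription factor that mostly represses its targets, lies at chromosome 5, 119670652 to 119684724, on the plus strand, with up to 8 exons. Its level was 5.11 FPKM in WT and 3.18 FPKM in Ern1-LKO. The ratio was 0.623, with an interval of 0.471 to 0.824, and the authors' deposited table gives p = 0.00085 and q = 0.0349. The call was lost at a q threshold of 0.01. Tbx3 had the opposite direction to Rhbg, although β-catenin is known to drive both in liver. Only 3.34% of tested loci had a smaller log2 fold change than the -0.68 (SE 0.21) of Tbx3. Its close relative Tbx2 stood at 1.36 and 1.38 FPKM and was not called. Gene models on the opposite strand overlap between 1.44% and 3.80% of the exon bases of Tbx3, Glul, Axin2 and Slc1a2. The sources used here do not say whether strand was kept or used in counting, so reads from the shared bases could not be assigned to a strand. Of these partners only Teddm2, opposite Glul, has a row in the table, at 0.0592 and 0.192 FPKM.

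The feedback inhibitors among the 10 genes, Axin2, Nkd1 and Znrf3, were under 3 FPKM in both genotypes and were not called. Axin2, the scaffold of the complex that destroys β-catenin and the most used readout of Wnt activity, lies at chromosome 11, 108920349 to 108950781, on the plus strand. It stood at 1.61 FPKM in WT and 1.23 FPKM in Ern1-LKO. The ratio was 0.767, with an interval of 0.564 to 1.04, and the authors' deposited table gives p = 0.0893 and q = 0.624. Axin1, the form of the same scaffold that does not depend on the pathway, stood at 6.70 and 5.68 FPKM and was not called either.

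Nkd1, which binds Dishevelled and dampens the signal, lies at chromosome 8, 88521344 to 88594887, on the plus strand. It stood at 1.62 FPKM in WT and 1.55 FPKM in Ern1-LKO, a ratio of 0.953 with an interval of 0.709 to 1.28. Znrf3, a ubiquitin ligase that removes Frizzled receptors from the cell surface, lies at chromosome 11, 5276329 to 5444923, on the minus strand. It stood at 2.42 and 2.47 FPKM, a ratio of 1.02 with an interval of 0.790 to 1.32. Rnf43, the partner of Znrf3 in the same role, stood at 4.26 and 3.21 FPKM, where the authors' deposited table gives p = 0.0412 and q = 0.435.

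Lgr5, a receptor for R-spondin that holds Znrf3 and Rnf43 in check, lies at chromosome 10, 115450314 to 115587780, on the minus strand. It stood at 1.75 FPKM in WT and 1.95 FPKM in Ern1-LKO, a ratio of 1.11 with an interval of 0.833 to 1.49. Its relative Lgr4, which is found across the whole lobule, was at a higher level, 18.8 and 19.8 FPKM, and was not called. In the authors' deposited table q was 0.999 for Lgr5, Nkd1 and Znrf3 alike.

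The order of the 10 levels was the same in both genotypes: Rgn, Glul, Oat, Slc1a2, Rhbg, Tbx3, Znrf3, Lgr5, Nkd1 and Axin2, from high to low. Per length, Rgn stood 336-fold above Axin2 in WT and 498-fold above it in Ern1-LKO. Some neighbours in that order were close: Nkd1 over Axin2 was 1.01-fold in WT and 1.25-fold in Ern1-LKO, and Lgr5 over Nkd1 was 1.08-fold and 1.26-fold. The table gives no error for a level, so neighbours were not tested against each other. The neighbours Rhbg and Tbx3 were 1.36-fold apart in WT and 5.04-fold apart in Ern1-LKO, which restates the rise of Rhbg and the fall of Tbx3.

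**Figure D3:**
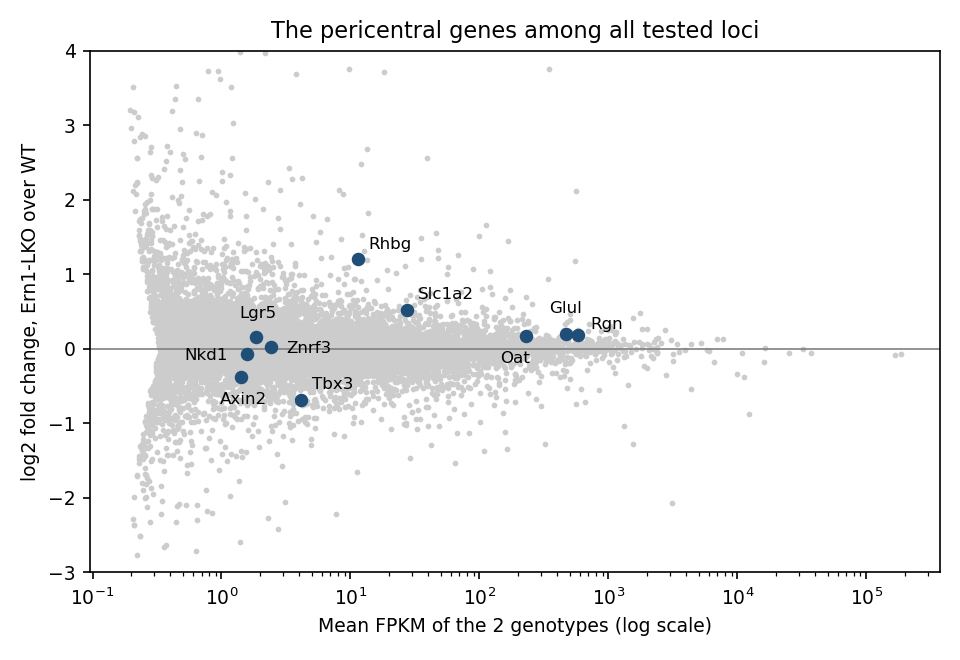
Log2 fold change of Ern1-LKO over WT against mean FPKM (log axis) for all tested loci with a value above 0 in both genotypes (grey; 13 points lie beyond the axis), with the 10 pericentral genes in blue. Glul, Oat and Rgn lie in the narrow part of the cloud at high FPKM, Rhbg lies near the upper edge of the cloud at its level, and Tbx3 near the lower.

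RNA of the pathway's ligands, receptors and relay was read in whole liver, which does not measure the signal that reaches pericentral hepatocytes. Of 25 genes for Wnt ligands, R-spondins and their secretion, 8 were tested and none was called by the authors' test, with 1 at an unadjusted p under 0.05, against 10.3% of all tested loci. Porcn and Wls, which acylate and carry Wnt proteins, stood highest, at 2.37 and 2.18 FPKM and at 1.71 and 2.09 FPKM in WT and Ern1-LKO. The 3 known signals of the central vein, chosen for mention after their values were seen, all lay above WT. Wnt2 was at 1.32 and 1.71 FPKM and Rspo3 at 1.70 and 1.96 FPKM. Wnt9b was at 0.290 and 0.578 FPKM, for which the authors' deposited table gives p = 0.00315 and q = 0.0899.

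Of 15 receptor genes, 10 were tested and none was called, with 2 at an unadjusted p under 0.05, Fzd5 and Fzd6, both lower in Ern1-LKO. Lrp5, a coreceptor, stood at 23.0 and 21.2 FPKM. The list lay above WT at 3 of 10 genes, and at 6 of 10 once the median of expressed loci was set to 0, so its direction depends on the scaling. Of 20 relay and nuclear factors 18 were tested, and none was called or had an unadjusted p under 0.05. Ctnnb1, which encodes β-catenin, stood at 82.4 and 81.9 FPKM, and the kinase gene Csnk1a1 at 30.9 and 31.5 FPKM. Total Ctnnb1 RNA does not measure the stability of the protein.

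Of 18 further antagonists and feedback inhibitors 8 were tested, and 1 rose, Dkk3, from 0.389 to 0.877 FPKM. Dkk3 is an atypical member of the Dickkopf family, and in the authors' deposited table its q is 0.0308. It was under 1 FPKM in both genotypes and dropped out under a filter at that level. Tle1, a corepressor, stood at 21.1 and 25.9 FPKM, and Notum, a secreted enzyme that inactivates Wnt proteins and is a pericentral target itself, at 20.8 and 23.6 FPKM.

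Of 12 tested further Wnt targets 1 rose, Myc, from 1.44 to 7.03 FPKM, and 8 had an unadjusted p under 0.05, of which 3 lay above WT and 5 below. Myc also responds to many other signals. In the list 6 of 12 lay above WT, and the log2 fold changes had their median at 0.06; without Myc, an alternative chosen after seeing the data, these were 5 of 11 and -0.0042, so the sign of the median depends on Myc. Lect2 stood at 119 and 135 FPKM and the nuclear receptor gene Nr1i3 at 39.3 and 42.8 FPKM, neither called. The SE on the log2 fold change of Nr1i3 was 3.29, against 0.16 for Lect2, so the lack of a call for Nr1i3 says little. Other targets with an unadjusted p under 0.05, named after their values were seen, went both ways and were not called. Ahr, the aryl hydrocarbon receptor gene, stood at 6.07 and 8.86 FPKM (q = 0.0613 in the authors' deposited table) and Tnfrsf19 at 1.21 and 1.74 FPKM (q = 0.318). Below WT lay Fst, the follistatin gene, at 1.66 and 0.879 FPKM (q = 0.0669), Ccnd1, the cyclin D1 gene, at 10.5 and 6.44 FPKM (q = 0.214), Prox1 at 12.7 and 9.16 FPKM (q = 0.269), and Sp5, which like Axin2 is a direct target in many tissues, at 0.930 and 0.509 FPKM (q = 0.347).

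**Figure D4:**
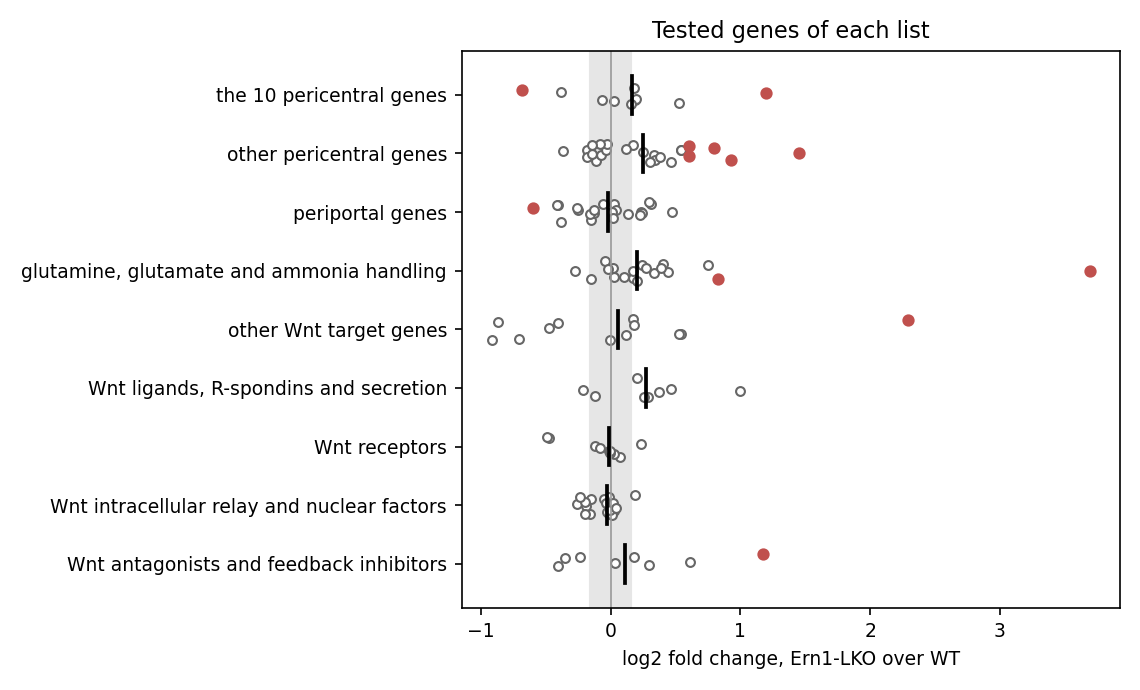
Log2 fold change of Ern1-LKO over WT for the tested genes of each list (points, red where called by the authors' q, spread vertically for legibility), with the median of each list as a black bar and the quartiles of all tested loci as a grey band. The medians of the 10 pericentral genes and of the other pericentral genes, 0.17 and 0.25, lie at or beyond the upper edge of the band. So do those of the Wnt ligand list, 0.28, and of the glutamine, glutamate and ammonia list, 0.20. The periportal median of -0.02 and those of the remaining lists lie inside it.

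Other pericentral genes, P450s included, lay above WT at 15 of 25, against 47.9% of tested loci, and the median of the log2 fold changes was 0.25. Over all tested loci, the background for every list, 1.58% were called higher and 1.16% lower. Of the 25 other pericentral genes 5 rose and none fell. They were Alas1, the first enzyme of heme synthesis (89.2 to 244 FPKM), Por, the electron donor of P450s (76.2 to 133 FPKM), Cyp7a1 (11.1 to 21.1 FPKM), Cyp2a5 (201 to 306 FPKM) and Slc13a3, a dicarboxylate carrier (4.92 to 7.50 FPKM). The genes of highest level were not called: Cyp2e1 stood at 2495 and 2960 FPKM, and Cyp3a11 at 1359 and 1260 FPKM. Cyp2a5 and Slc13a3 were no longer called at a q threshold of 0.01. P450 genes of a family share sequence, and their values are uncertain.

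Periportal genes, the opposite end of the lobule, lay above WT at 11 of 22, and the median of the log2 fold changes was -0.02. Of these 1 fell, Hsd17b6, a hydroxysteroid dehydrogenase, from 122 to 80.7 FPKM, and none rose; this call, too, was lost at a q threshold of 0.01. Ass1, of the urea cycle, stood at 2238 and 2458 FPKM, and Pck1, of gluconeogenesis, at 1062 and 1247 FPKM. The difference between the periportal and pericentral lists was not tested.

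Genes for handling glutamine, glutamate and ammonia lay above WT at 15 of 19 tested, and the median of the log2 fold changes was 0.20. Of these 2 rose: Got1, an aspartate aminotransferase (86.6 to 154 FPKM), and Asns, asparagine synthetase, which uses glutamine (0.539 to 6.97 FPKM). Cps1, which takes up ammonia in periportal cells, stood at 809 and 956 FPKM. Slc38a3, the glutamine carrier of hepatocytes, stood at 627 and 790 FPKM. Neither was called, and q was 0.950 and 0.582 in the authors' deposited table. Summed over its 26 genes the list came to 3286 FPKM in WT and 3853 FPKM in Ern1-LKO, and summed over the 10 pericentral genes the level was 1230 and 1414 FPKM.

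Markers of other cell types, adipocytes and muscle included, were counted in the same table. Of 13 endothelial markers 12 lay above WT, with a summed level of 106 FPKM in WT and 118 FPKM in Ern1-LKO, and none was at 0. Of these 2 rose, Thbd (1.98 to 3.87 FPKM) and Vwf (0.850 to 1.46 FPKM), both of larger vessels, while the sinusoidal genes Clec4g (52.6 and 54.8 FPKM) and Oit3 (9.34 and 9.87 FPKM) were not called. Of 12 stellate cell markers 11 lay above WT, with sums of 142 and 178 FPKM, and 1 rose, Lum (2.26 to 3.99 FPKM). The stellate markers of highest level were Ecm1, in a combined locus with Tars2 (57.8 and 70.3 FPKM), and Dcn (41.7 and 56.6 FPKM), neither called. No stellate or Kupffer cell marker was at 0. Of 12 Kupffer cell markers 11 lay above WT, with sums of 419 and 451 FPKM. None of them was called, with 2 at an unadjusted p under 0.05. The highest were Cd68, in a combined locus with Eif4a1 (163.1 and 150.02 FPKM), and Lyz2 (41.4 and 49.6 FPKM).

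Of 7 tested bile duct markers 5 lay above WT, with sums over 8 genes of 52.3 and 60.6 FPKM, and 1 rose, Onecut1 (6.06 to 21.4 FPKM), which encodes a factor that hepatocytes also make. Spp1, the highest of them, stood at 37.2 and 30.3 FPKM. Of 5 tested lymphocyte markers 4 lay above WT, with sums over the 8 genes of the list of 4.50 and 6.74 FPKM, and 1 rose, Cd4 (0.740 to 1.40 FPKM). Ptprc (1.35 and 1.85 FPKM) and Nkg7 (0.775 and 1.7997 FPKM) were the highest and were not called. All 5 tested adipocyte markers lay above WT, with sums over 6 genes of 17.7 and 36.7 FPKM, and Retn, listed at 0 in WT, was at 2.06 FPKM in Ern1-LKO. Retn was the 1 called marker among them, and Fabp4 (17.5 and 24.9 FPKM) and Cfd (0.168 and 7.66 FPKM) were the highest. Adipoq (0.0463 and 1.42 FPKM) and Plin1 (0.00673 and 0.644 FPKM) were near 0 in WT and were not called. All 6 muscle markers lay above WT, with sums of 73.9 and 82.1 FPKM, and none was called or had an unadjusted p under 0.05. Acta1 (17.99 and 20.51 FPKM) and Tnnc2 (18.02 and 18.66 FPKM) were the highest. The part of these cells in the values of Rhbg, Tbx3 and the other pericentral genes was not tested.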

How the data were processed

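Per the labels' protocols, total RNA from frozen mouse liver was made into NEBNext Ultra libraries for Illumina sequencing. The submitters' processing notes list Cufflinks 2.2.1, TopHat2 2.0.14, FastQC 0.11.3 and bcl2fastq, with the mm10 build and no roles. The sources used here name no annotation, scaling or dispersion method. In the layout of a Cuffdiff comparison, per the file headers, the authors deposited 1 FPKM per genotype and locus with a log2 fold change, a test statistic (a signed score), a p-value and a q-value. FPKM here keeps no depth, so counting intervals and detection limits could not be computed. The plan allowed a limma fit for values per library; with a pooled value per genotype the authors' own test was used, and no p across mice was made.

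The SE of a log2 fold change was derived by dividing it by the test statistic and multiplying by ln 2, without sign. The ratio of the resulting z to that of the deposited p had a median of 1.02 (5th to 95th percentile 0.999 to 1.07) over 4899 expressed loci. Loci at the smallest deposited p of 5e-05, Rhbg among them, and loci of high p, such as Nkd1 and Znrf3, were outside this check. Table starts count from 0 and were raised by 1. Calls are q under 0.05 over all 13320 tested loci. Overlapping gene models came from GENCODE M21.

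The members and the 18 lists (10 of pathways, 8 of cell types) were chosen with earlier results of these data known, and some genes are on several lists. The text names all members, every called gene of a list and its 2 genes of highest mean FPKM; family members and other genes named were picked with their values known. The alternatives tried were a q threshold of 0.01, a 2-fold minimum, filters at a mean FPKM of 1 or 5, pseudocounts of 1 and 0.1, adjustment over expressed loci (at least 1 FPKM in a genotype), and a shift to a median of 0 with a normal approximation. Steps were checked on simulated data. Software was Python 3.11.15 with scipy 1.17.1, matplotlib 3.10.9, pandas 2.3.3 and numpy 2.4.6.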

Additional observations from a re-analysis of the deposited data

How the results depend on the processing

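Rhbg was called higher under all 7 alternatives for calls. The q threshold of 0.01, the 2-fold minimum and the filters at a mean FPKM of 1 or 5 could not drop it. Its q is 0.00343, its log2 fold change 1.20 and its levels 6.97 and 16.0 FPKM. The remaining alternatives reuse the deposited p or the SE from the same test, so none is independent support. After the shift of the median, 0.02 on the log2 scale, 7 of 10 pericentral genes lay above WT. With a mean FPKM of at least 1, which removed none of the 10 genes, the count could not change. With a mean FPKM of at least 5, 5 of 5 lay above WT, but these are the 5 enzymes and transporters already described. The median log2 fold change lay between 0.14, with a pseudocount of 1, and 0.20, with a mean FPKM of at least 5. The count called lower, 1, was 0 at a q threshold of 0.01, with a 2-fold minimum, and with a mean FPKM of at least 5. Each of these drops Tbx3 by its own construction, since its q is 0.0349, its log2 fold change is -0.68 and its levels are 5.11 and 3.18 FPKM. At a q threshold of 0.01 the calls of Dkk3, Cyp2a5, Slc13a3, Hsd17b6, Lum and Cd4 were lost as well. Under a normal approximation on the implied SE, among the Wnt ligands and targets, Wnt9b and Ahr were also called higher and Fst lower. No paired analysis was possible because FPKM was deposited as a pooled value for each genotype, and fits with a replicate block or without a replicate were not run for the same reason. Either mouse of a genotype could carry a difference, and with depth unknown no detection limit can be given for Axin2, Nkd1, Lgr5 and Znrf3, all under 3 FPKM.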
